A study of Mus musculus with 21 samples.

Results

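Interferon-stimulated genes are genes whose transcription rises when a cell senses interferon. The set described here is Ifit1, Ifit2, Ifit3, Isg15, Stat2, Irf7, Irf9, Bst2 and Ifi27, 9 genes of the 55487 in the deposited counts table, found by name. The rule uses no measured value, though the names were proposed with earlier results of these data known. All 9 are protein-coding by GENCODE M21, each had at least 10 counts in every library, and all 9 passed the filter on low counts that left 18146 genes for testing.

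The mice were wild type male C57BL/6 mice, killed at 10 weeks of age, and poly-A RNA of the dissected hippocampus was sequenced with 1 library per mouse. Maternal separation (MS, 9 mice) meant that the intact nest was taken from the dam for 4 hr each day from postnatal day 10 to day 17 and the dam had less nesting material, and standard rearing (SR, 12 mice) is the control. All mice shared the strain and genotype, and no group carried an altered allele. The question was whether separation early in life left a lasting difference in hippocampal transcripts. Whole nests were assigned to a condition, and the labels name no nest. Animal numbers run in blocks of 3 that share a condition, which gave MS sets A to C and SR sets D to G, and the numbers fall into a low range (sets A, B, D, E and F) and a high range (sets C and G).

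MS mouse 5 stood apart from the other 20 and was left out of the tests. Levels are given as CPM, a gene's counts scaled to library size after TMM normalization. This mouse had 0.693 CPM of the granule cell gene Dsp, against 54.0 to 138 CPM in the others, and 2024 CPM summed over a list of striatal neuron markers against 86.6 to 700. The 8 MS and 12 SR libraries that were tested held 17276810 to 26450808 counts each. Every pair of libraries of a condition differed by more than sampling noise. P-values measure the spread between mice and treat nest mates as independent.

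Type I interferons bind a receptor made of Ifnar1 and Ifnar2, whose kinases Jak1 and Tyk2 phosphorylate Stat2. A complex that holds Stat2 and Irf9 then enters the nucleus and binds a DNA element, the interferon-stimulated response element, in front of the target genes. In the brain the response is best known from viral infection and ageing, and microglia, endothelial cells, astrocytes and neurons can all mount it. Of the 9 genes, Stat2 and Irf9 are parts of that complex, Irf7 is the factor that amplifies interferon production, and the other 6 are effectors.

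The elements near the starts of these genes are shown because the set is defined by its response through them. RefSeq promoter windows of build GRCm38.p6 were found for 8 of the 9 genes, 2 each for Ifit2 and Irf9 and 1 for the others, Ifi27 having no entry, and were searched over the 250 bases before the start on both strands. The core of the response element was searched as GAAANNGAAA, its repeated form as GAAANNGAAANNGAAA, which contains matches to the core, and the STAT dimer element as TTCNNNGAA. The core was found in 5 of the 8 genes (Isg15, Bst2, Ifit1, Ifit3 and Stat2), in 3.46% of all 27025 genes with a window and in 2.98% of all 32851 windows. The repeated form was found in 2 of the 8 genes (Isg15 and Bst2), in 0.104% of all genes and in 0.0913% of all windows. The STAT dimer element was found in 2 of the 8 genes (Bst2 and Ifit2), in 8.13% of all genes and in 7.02% of all windows. Each stretch with a match to the core is printed 5′ to 3′ on the strand of the gene, with the matches in capitals and 20 bases on either side; TTTC stands where the element lies on the other strand.
Isg15, chr4:156200855-156200916, strand -: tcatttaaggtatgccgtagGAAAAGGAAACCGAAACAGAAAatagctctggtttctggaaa
Bst2, chr8:71537567-71537622, strand -: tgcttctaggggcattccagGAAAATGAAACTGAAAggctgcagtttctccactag
Ifit1, chr19:34640765-34640833, strand +: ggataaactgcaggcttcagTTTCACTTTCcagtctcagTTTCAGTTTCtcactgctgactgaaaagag
Ifit3, chr19:34583353-34583402, strand +: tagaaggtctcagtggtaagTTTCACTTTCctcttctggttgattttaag
Ifit3, chr19:34583387-34583436, strand +: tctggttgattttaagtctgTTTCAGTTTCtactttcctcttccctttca
Stat2, chr10:128270256-128270305, strand +: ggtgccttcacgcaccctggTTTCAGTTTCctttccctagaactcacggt

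The match in Isg15 lay 78 to 57 bases before the start and consisted of 3 overlapping copies of the core, the longest run in the set. In Bst2, 2 overlapping copies lay 130 to 115 bases before the start. Ifit1 and Ifit3 had 2 separate copies each, all on the opposite strand, and Stat2 had 1. Ifit2, Irf7 and Irf9 had no match to the core in these windows. Among 70 other interferon-stimulated genes with a promoter entry, 31 had the core, 5 the repeated form and 10 the STAT dimer element.

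The levels of the set spanned a wide range in the adult hippocampus. Per kb of exon, so that genes can be compared, Ifi27 had the highest level with 19.8 ± 5.04 CPM per kb (SD, n = 20 mice) and exceeded Stat2, the next in order with 5.88 ± 0.349, in 20 of 20 mice. Stat2 exceeded Ifit3 (4.29 ± 0.898) in 19 of 20 mice. The genes that follow lay close together, with Irf9 at 3.34 ± 0.401, Bst2 at 2.89 ± 1.18, Ifit2 at 1.98 ± 0.328 and Isg15 at 1.82 ± 0.498 CPM per kb, and none of these neighbours differed by more than their spread. By mouse, Ifit3 exceeded Irf9 in 18 of 20, Irf9 exceeded Bst2 in 14, Bst2 exceeded Ifit2 in 14 and Ifit2 exceeded Isg15 in 12. Isg15 exceeded Ifit1 (0.743 ± 0.185) in 20 of 20 mice. Irf7 was the lowest at 0.510 ± 0.142 CPM per kb, within the spread of Ifit1, though Ifit1 exceeded it in 19 of 20 mice. Raw counts per library were 16 to 45 for Isg15, 22 to 68 for Ifit1, 21 to 74 for Irf7 and 24 to 113 for Bst2, which are low, and 602 to 905 for Stat2 and 422 to 961 for Ifi27.

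No member of the set passed the test of MS against SR mice after adjustment for multiple testing (edgeR's quasi-likelihood test with Benjamini-Hochberg adjustment, 8 MS against 12 SR mice). Of all 18146 genes, 2 (0.0110%) were called. At an unadjusted p under 0.05, 1 member of 9 passed, Ifi27, beside 11.5% of all genes. DESeq2 called 132 of the 14276 genes for which it gave an adjusted p (0.925%) and 0 of the 7 members that had one, Isg15 and Irf7 having none. The median log2 fold change of the 9 genes was 0.01, against 0.00 over all genes, and 5 of the 9 were above 0, where 50.3% of all genes were. The CPM ranges of MS and SR mice overlapped for all 9 genes, as for all but 0.0110% of genes.

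Stat2, the subunit that carries the activation domain of the interferon complex, was the steadiest gene of the set. It has the identifier ENSMUSG00000040033 and lies at chr10:128270559-128292849 on the plus strand (GRCm38, as are all gene positions). MS mice had 32.2 to 39.0 CPM (median 35.2) and SR mice 30.4 to 37.3 CPM (median 35.0). The groups covered almost the same range. The log2 fold change was 0.01 (SE 0.0428, edgeR adjusted p = 0.966), with a 95% interval of -0.08 to 0.10, the narrowest of the set.

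Irf9 (ENSMUSG00000002325, chr14:55603571-55610030, plus strand), the DNA-binding subunit of that complex, had 17.0 to 20.4 CPM in MS mice (median 18.7) and 13.8 to 21.4 CPM in SR mice (median 17.7). The SR mice reached both lower and higher than every MS mouse. The log2 fold change was 0.09 (SE 0.0766, interval -0.07 to 0.24, edgeR adjusted p = 0.712). Irf9 shares 123 bases of exon on the same strand with Rnf31, a subunit of a ubiquitin ligase, whose log2 fold change was 0.06, so reads in that stretch cannot be assigned to 1 of the genes.

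Irf7 (ENSMUSG00000025498, chr7:141262706-141266481, minus strand), the factor that amplifies interferon production, had 1.15 to 2.88 CPM in MS mice (median 1.79) and 1.05 to 2.81 CPM in SR mice (median 2.01). The ranges were almost identical. Its log2 fold change was -0.10 (SE 0.182, edgeR adjusted p = 0.885), with an interval of -0.47 to 0.28. Irf7 overlaps Phrf1, on the opposite strand, by 45 bases. Phrf1 had 1293 to 2328 counts a library, and whether the counting used strand is not given, so the low value of Irf7 is uncertain to that extent.

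The Ifit genes encode proteins with tetratricopeptide repeats that bind RNA or one another and restrict viral translation. They lie in a cluster on chromosome 19, all on the plus strand, with Ifit2 (ENSMUSG00000045932) at chr19:34550694-34576419, Ifit3 (ENSMUSG00000074896) at chr19:34583531-34588731 and Ifit1 (ENSMUSG00000034459) at chr19:34640871-34650009. Ifit1, which binds RNA with a foreign cap, had 1.21 to 2.65 CPM in MS mice (median 1.93) and 1.33 to 2.89 CPM in SR mice (median 2.17). Ifit2 had 5.74 to 9.36 CPM in MS mice (median 6.85) and 6.02 to 10.9 CPM in SR mice (median 8.05). Ifit3, a partner of the others, had 5.35 to 10.4 CPM in MS mice (median 6.87) and 5.02 to 10.1 CPM in SR mice (median 7.84). All 3 had a lower median in MS mice, with only 2 or 3 of the 8 MS mice above the SR median, and the groups overlapped broadly. The log2 fold changes were -0.06 for Ifit1 (SE 0.167, interval -0.40 to 0.28, edgeR adjusted p = 0.927), -0.13 for Ifit2 (SE 0.103, interval -0.35 to 0.08, adjusted p = 0.653) and -0.12 for Ifit3 (SE 0.131, interval -0.39 to 0.15, adjusted p = 0.782). Ifit3 has a close copy, Ifit3b, that is 97.8% identical over 1700 bases, so reads could be split between them and the value of either is uncertain. Ifit3b had 4.94 ± 0.968 CPM in MS mice (SD, n = 8) and 4.23 ± 0.891 CPM in SR mice (n = 12), a log2 fold change of 0.22 (SE 0.130), opposite in sign to that of Ifit3. The relatives of Ifit1, Ifit1bl1 (86.0% identical over 730 bases) and Ifit1bl2 (84.5% over 801 bases), had log2 fold changes of 0.05 and 0.40 with unadjusted edgeR p of 0.734 and 0.0887.

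Isg15 (ENSMUSG00000035692, chr4:156199424-156200818, minus strand), which encodes a ubiquitin-like protein that is attached to other proteins, had 1.02 to 2.20 CPM in MS mice (median 1.53) and 0.801 to 1.79 CPM in SR mice (median 1.22). In 6 of the 8 MS mice it lay above the SR median, and 2 lay above every SR mouse. The log2 fold change was 0.30 (SE 0.171, interval -0.06 to 0.65), with an edgeR adjusted p of 0.527. With 16 to 45 counts a library, counting error alone gives a coefficient of variation of 19.1%, against 25.0% measured among MS and 26.8% among SR mice. A stretch of 482 bases of Isg15 is 95.2% identical to the gene AC151275.1.

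Bst2 and Ifi27 had the largest log2 fold changes of the set. Bst2 (ENSMUSG00000046718, chr8:71534255-71537456, minus strand) encodes tetherin, a membrane protein that holds budding virus particles at the cell surface. It had 1.53 to 4.97 CPM in MS mice (median 3.07) and 1.20 to 4.30 CPM in SR mice (median 2.04). The tested MS mice split by set, with 3.00 to 4.97 CPM in 5 mice of sets A and B and 1.53 to 2.65 CPM in 3 of set C. MS mouse 5, of set A and left out of the tests, had 2.51 CPM, within the values of set C. The log2 fold change was 0.44 (SE 0.228, interval -0.03 to 0.91, edgeR adjusted p = 0.476).

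Ifi27 (ENSMUSG00000064215, chr12:103434211-103440239, plus strand), which encodes a small membrane protein induced by type I interferon, had 21.6 to 41.2 CPM in MS mice (median 32.8) and 18.6 to 38.2 CPM in SR mice (median 23.2). It was above the SR median in 7 of the 8 MS mice and above every SR mouse in 3 of them. Its log2 fold change was 0.34 (SE 0.147, interval 0.04 to 0.65, unadjusted p = 0.0303, edgeR adjusted p = 0.375). The relatives Ifi27l2a and Ifi27l2b were too low to test, with means of 0.369 and 0.165 CPM over the 20 mice.

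**Figure D1:**
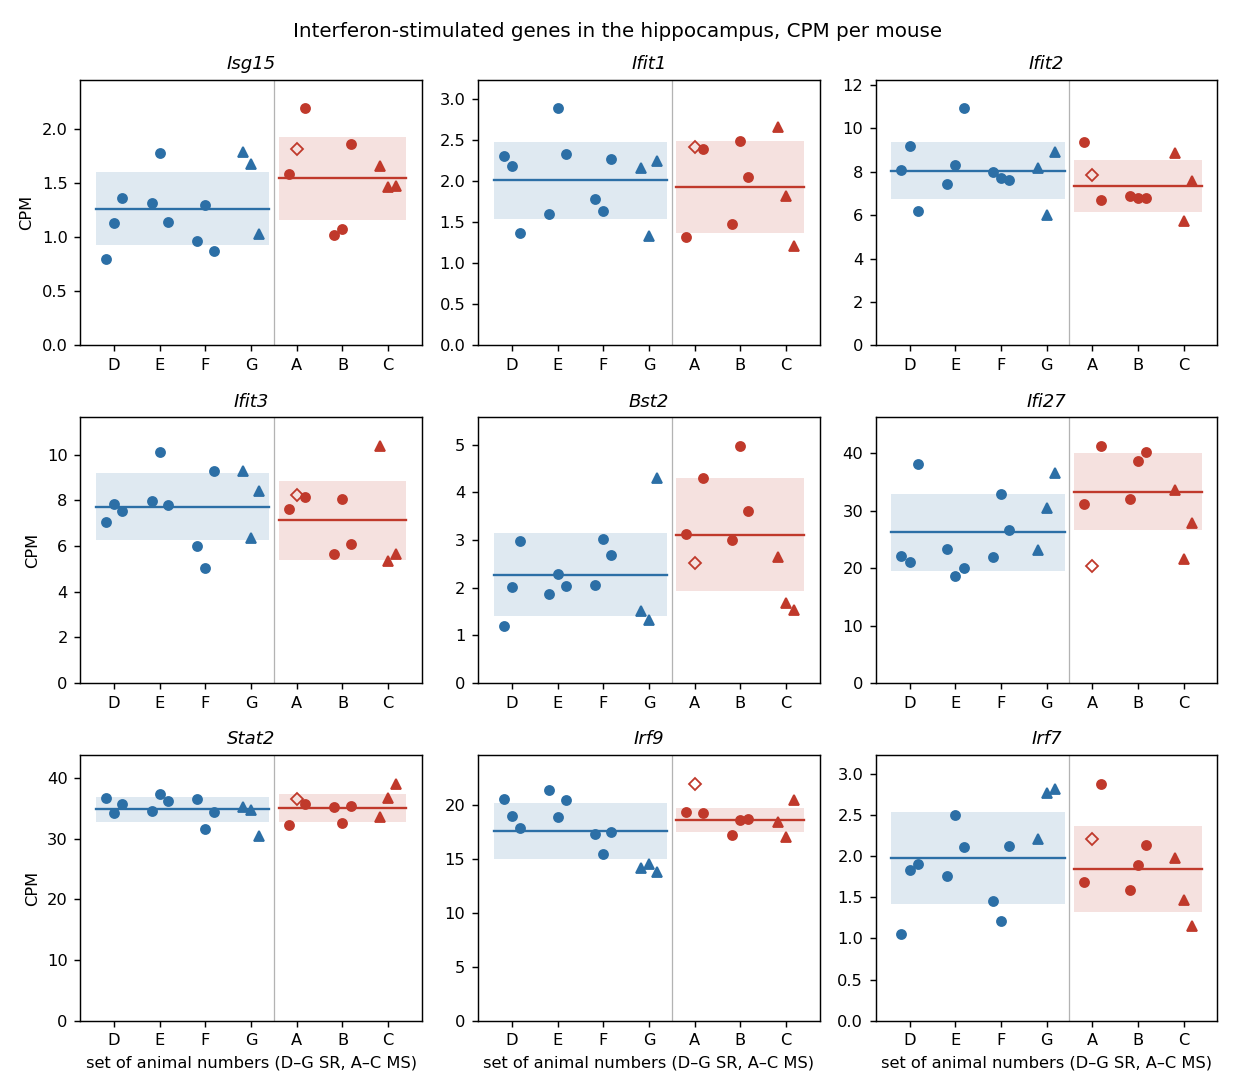
CPM (linear axis) of each of the 9 genes in every mouse, by set of 3 animal numbers, with SR in blue and MS in red, circles for the low and triangles for the high range of animal numbers, an open diamond for MS mouse 5, and a line and band for the mean ± SD of each condition. MS and SR overlap in every panel. For Bst2 the tested mice of MS sets A and B (3.00 to 4.97 CPM) sit above those of MS set C (1.53 to 2.65 CPM). MS mouse 5, of set A, has 2.51 CPM.

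Transcripts of the choroid plexus, the secretory epithelium of the ventricles that lies beside the hippocampus, differed widely between mice. Summed over 7 markers (Ttr, Folr1, Kl, Clic6, Kcne2, Otx2 and Aqp1) they came to 52.9 to 4192 CPM in MS mice (median 3309) and 28.8 to 4517 CPM in SR mice (median 835). None of the 7 was at 0 in any library, and all 7 had a log2 fold change above 0 (0.80 to 1.08), with 0 called by edgeR and 0 at an unadjusted p under 0.05. Markers of the neighbouring ependyma had a median summed level of 41.2 CPM in MS and 28.3 CPM in SR mice, with 3 of 5 tested at an unadjusted p under 0.05 (11.5% of all genes) and 0 called. In bulk tissue, fewer cells of a type and less RNA per cell cannot be told apart.

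Bst2 and Ifi27 followed the choroid plexus markers over the mice and were related to other marker lists too. Over the 20 mice, centred on the condition, Ifi27 had a Pearson r of 0.83 with the mean z score of the choroid plexus markers. It was 0.75 with ependyma, -0.71 with neuron and -0.58 with astrocyte markers. For Bst2 the same values were 0.64, 0.40, -0.61 and -0.25. With the choroid plexus markers, Stat2 had an r of -0.54 and Irf7 one of 0.32, and the remaining members had -0.26 to -0.03. Ttr, the thyroxine carrier, is the most abundant choroid plexus marker. By Ttr the mice fell into a cluster of 5 (MS mouse 8 and SR mice 1, 4, 7 and 10, with 10.4 to 49.4 CPM) and a cluster of 15 (349 to 4105 CPM). In the 5 mice with little Ttr, Ifi27 was 18.6 to 23.1 CPM (median 21.9) and Bst2 1.20 to 2.29 CPM (median 1.68). In the other 15, Ifi27 was 20.1 to 41.2 CPM (median 32.0) and Bst2 1.33 to 4.97 CPM (median 2.98). This relation was looked at after the values had been seen.

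Within the 15 mice, and over 9 relations tested, Ifi27 rose with the summed markers (log2 CPM centred on the condition; Pearson r = 0.79, permutation p = 0.00033, adjusted 0.00297; Spearman rho = 0.82, adjusted permutation p = 0.00225; r = 0.93 without the 2 mice farthest from the median). Bst2 did too (r = 0.66, permutation p = 0.00756, adjusted 0.0340; rho = 0.81, adjusted 0.00225; r = 0.72 without the 2 mice). Irf9 had the opposite sign (r = -0.62, permutation p = 0.0140, adjusted 0.0419), but its rho of -0.44 did not pass (adjusted permutation p = 0.237). For the other 6 genes the adjusted permutation p of r was 0.237 to 0.808.

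With the mean z score of the 7 markers as a term in the edgeR fit, an alternative chosen after seeing the data, the log2 fold change was 0.14 for Ifi27 (unadjusted p = 0.106) and 0.16 for Bst2 (unadjusted p = 0.394), while that of Isg15 was 0.32. No gene was then called by edgeR, and 1487 had an unadjusted p under 0.05. Markers of microglia, the brain's resident macrophages, had a median log2 fold change of 0.08 with 0 of 10 called, and those of endothelium one of 0.04.

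**Figure D2:**
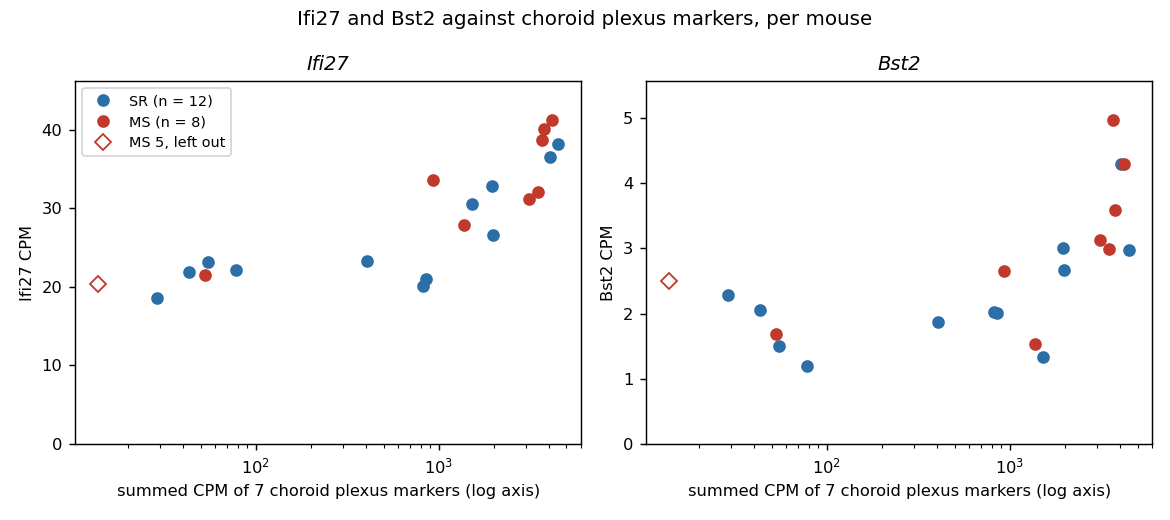
CPM of Ifi27 and of Bst2 (linear axes) against the summed CPM of 7 choroid plexus markers (log axis), 1 point per mouse, SR in blue and MS in red. Tested mice with few marker counts had 18.6 to 23.1 CPM of Ifi27 and 1.20 to 2.29 CPM of Bst2. The mice with the highest levels of either gene lie to the right. An open diamond shows MS mouse 5, left out of the tests. It has 13.8 CPM of the markers, 20.4 CPM of Ifi27 and 2.51 CPM of Bst2.

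The MS effect was next taken within each range of animal numbers, since both ranges hold both conditions. In the high range each condition is 1 set, C or G, so set and condition cannot be told apart there, nor in the difference between the ranges. In the low range (5 MS and 9 SR mice), Bst2 was 3.80 ± 0.828 CPM (SD) in MS and 2.24 ± 0.580 CPM in SR mice, a log2 fold change of 0.76 with an edgeR adjusted p of 0.0511. Ifi27 was 36.7 ± 4.70 CPM in MS and 24.9 ± 6.51 CPM in SR mice of that range, a log2 fold change of 0.55 with an adjusted p of 0.104. The 7 choroid plexus markers summed to 3111 to 4192 CPM in the 5 tested MS mice of that range. In its SR mice they came to 4517 CPM in SR mouse 6 and 28.8 to 1991 CPM in the others. Their part in the low-range values was not tested. Bst2 and Ifi27 were the only members with an unadjusted p under 0.05 there, 2 of 9 beside 16.6% of 18395 genes, and 0 members were called where 230 genes (1.25%) were.

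In the high range (3 MS and 3 SR mice), the same genes had the opposite sign. Bst2 was 1.96 ± 0.607 CPM (SD) in MS and 2.38 ± 1.66 CPM in SR mice, a log2 fold change of -0.30, and Ifi27 was 27.7 ± 6.05 and 30.1 ± 6.71 CPM, a log2 fold change of -0.12. Irf7 was 1.53 ± 0.417 CPM in those MS mice and 2.59 ± 0.334 CPM in the SR mice (log2 fold change -0.75), and Irf9 was 18.6 ± 1.72 and 14.2 ± 0.353 CPM (log2 fold change 0.40). Only Irf7 and Irf9 had an unadjusted p under 0.05, 2 of 9 beside 4.52% of 17940 genes. edgeR called 0 genes (0%) in the high range, with 810 at an unadjusted p under 0.05.

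**Figure D3:**
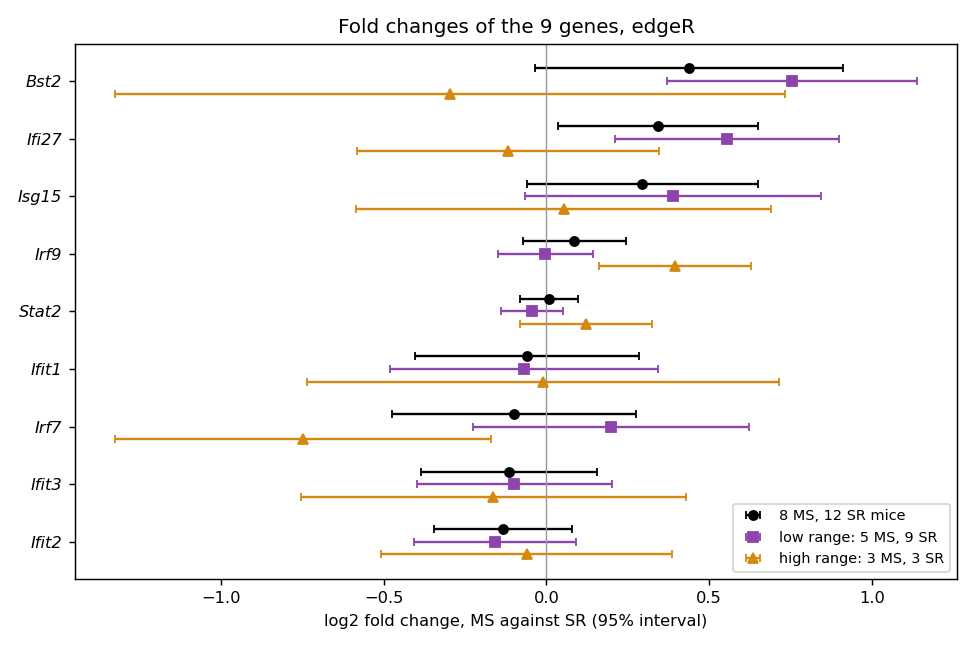
Log2 fold change of MS against SR with its 95% interval for the 9 genes, over all mice (8 MS and 12 SR, black), in the low range of animal numbers (5 MS and 9 SR, purple) and in the high range (3 MS and 3 SR, orange). The value of Bst2 is 0.76 in the low and -0.30 in the high range, and that of Irf7 0.20 and -0.75.

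The difference of the MS effect between the ranges was tested itself, as an interaction term. For 4 of the 9 genes it had an unadjusted p under 0.05, where 8.67% of all genes did, and none passed adjustment (edgeR called 0 of 18146 genes, 0%, with 1573 at an unadjusted p under 0.05, and DESeq2 called 18, none of them a member). The high-range effect minus the low-range effect was -1.06 for Bst2 (log2, SE 0.440, edgeR adjusted p = 0.531), -0.95 for Irf7 (SE 0.345, adjusted p = 0.472), -0.68 for Ifi27 (SE 0.296, adjusted p = 0.548) and 0.40 for Irf9 (SE 0.122, adjusted p = 0.399). With the choroid plexus marker score as a term these became -0.47 for Bst2 and -0.21 for Ifi27, and -0.85 for Irf7 and 0.36 for Irf9.

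Between sets of the same condition, edgeR called 6 genes of 18146 (0.0331%) and no member. Irf9 was the 1 member with an unadjusted p under 0.05 (p = 0.000214, adjusted p = 0.156), beside 9.09% of genes. The 3 mice of SR set G had 13.8, 14.2 and 14.5 CPM of Irf9, while the set means were 16.8 CPM in F, 19.1 in D and 20.2 in E, and 18.2 to 19.3 in the MS sets. Set G held the 3 lowest values of Irf9 over the 20 mice and also the highest set mean of Irf7 (2.59 CPM, against 1.53 to 2.28 in the other sets). DESeq2's likelihood ratio test called 177 of 17087 genes (1.04%), Irf9 among them with an adjusted p of 0.00266. Nest and set cannot be told apart here.

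The set was more variable between mice than most genes. The biological coefficient of variation estimated by edgeR had a median of 20.1% over the 9 genes, against 11.4% over all genes tested. Bst2 was the most variable at 33.2%, higher than 94.4% of genes, and over the 20 mice its highest CPM was 4.14 times its lowest. Irf7 (23.9%), Ifi27 (22.1%), Ifit1 (21.4%), Isg15 (20.1%) and Ifit3 (19.3%) followed, with Ifit2 at 15.1%. Irf9 at 11.7% lay near the middle of all genes, and Stat2 at 6.84% was steadier than most, its highest CPM being 1.28 times its lowest. The measured coefficient of variation of CPM was above the all-gene median for 7 of the 9 genes in MS mice and for 8 of the 9 in SR mice. The low counts of Isg15, Ifit1, Irf7 and Bst2 contribute counting error of 14.5% to 19.1%, which is part of that measure.

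The 9 genes showed little shared variation between mice as a whole. Over the 36 pairs, with log2 CPM centred on the mean of the condition (n = 20 mice), the median Pearson r was 0.086, the range -0.65 to 0.67, and 21 pairs were above 0. After adjustment over the 36 pairs, 3 pairs passed by r and 3 by rho.

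Bst2 and Ifi27 were the most alike (r = 0.67, permutation p = 0.00125, adjusted 0.0300; rho = 0.67, adjusted permutation p = 0.0456; r = 0.61 without the 2 mice farthest from the median), and r was 0.65 within the 15 mice with much Ttr. Ifit1 and Ifit3, neighbours on chromosome 19, came next (r = 0.64, permutation p = 0.00250, adjusted 0.0300; rho = 0.65, adjusted 0.0456; r = 0.59 without the 2 mice). Ifit3 and Irf7 passed by rank alone (r = 0.58, adjusted permutation p = 0.0676; rho = 0.63, adjusted 0.0456). Stat2 and Bst2 had opposite deviations (r = -0.65, permutation p = 0.00212, adjusted 0.0300), but r was -0.44 without the 2 farthest mice and the rho of -0.52 did not pass (adjusted permutation p = 0.125). Within the 15 mice with much Ttr, Stat2 and Bst2 had an r of -0.65 and a rho of -0.45. The pairs with a positive relation that passed thus joined Ifit3 with Ifit1 and with Irf7, and Bst2 with Ifi27.

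**Figure D4:**
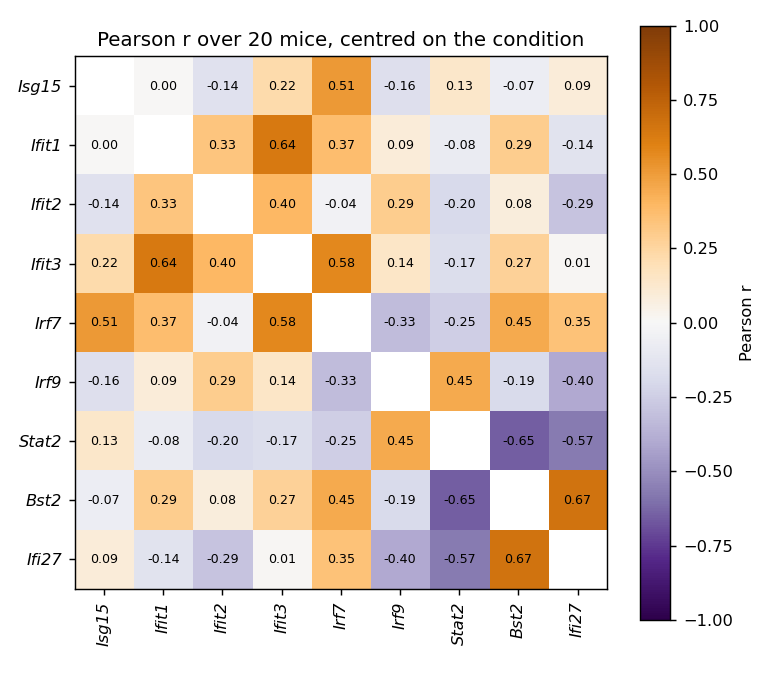
Matrix of Pearson r between the 9 genes over 20 mice, from log2 CPM centred on the condition, on a colour scale from -1 to 1. The cells spread to both sides of a median of 0.086, and 21 of the 36 pairs are above 0. Bst2 and Ifi27 (0.67) and Ifit1 and Ifit3 (0.64) are the highest and Stat2 with Bst2 (-0.65) is the lowest.

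Single mice with many of the genes high or low occurred in both conditions. MS mouse 6 had the highest mean z score of the 9 genes (0.79, centred on the condition), with 8 of 9 above the mean of its own group, and SR mouse 7 followed with 0.69 and also 8 of 9. MS mouse 8 had the lowest, -0.76, with 1 of 9 above its group mean, and SR mouse 2 and MS mouse 1 both had -0.52. SR mouse 7 combined the highest Ifit1 of all with the lowest Ifi27, while MS mouse 6 had the highest Isg15, Irf7 and Ifi27. These scores describe the spread and were not tested.

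**Figure D5:**
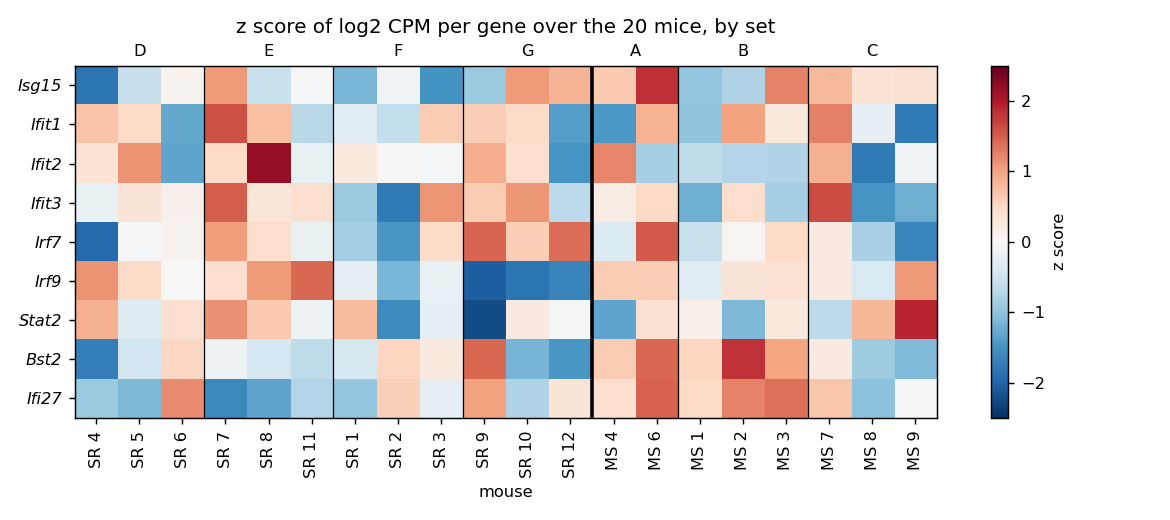
Heat map of the z score of log2 CPM for the 9 genes (lines) in the 20 tested mice (columns), ordered by set of animal numbers. The colours are not centred on the condition. Counted against their own group mean instead, MS mouse 6 and SR mouse 7 are above it in 8 of 9 genes and MS mouse 8 in 1 of 9.

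Of 18137 other genes tested, those whose deviations followed the mean z score of the set most closely over the 20 mice were Rida (Pearson r = 0.82), the class I antigen presentation gene H2-D1 (0.81), the interferon-induced GTPase gene Gbp6 (0.77), Abcf1 (0.76), Snhg5 (0.74), 5033430I15Rik (0.73), Ly6a (0.72), Neurl3 (0.71), Tbx15 (0.69) and Kif19a (0.69). The 100 closest of these 18137 genes held 4 of the 74 other interferon-stimulated genes tested. Each of the 9 genes is itself part of that mean, which raises its r, so these values cannot be set against those of other genes. Among the 9, Ifit3 followed the mean most closely (0.81), then Irf7 (0.70) and Ifit1 (0.66). Ifi27 (0.19) and Stat2 (-0.09) followed it least. All these values share libraries and depth.

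Upstream of the set, the interferons themselves were near or below detection. Of 15 ligand genes none passed the filter on low counts, and 9 had 0 counts in every library, among them Ifnb1, and a count of 0 allows up to 0.174 CPM (3 counts) in the shallowest library. The highest count of any ligand gene in a library was 3, of Ifng. The summed level of the 15 was at most 0.273 CPM in MS and 0.110 CPM in SR mice.

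The receptors and their kinases were all detected. Of 9 genes 8 were tested, none was called by edgeR or had an unadjusted p under 0.05, and the median log2 fold change was 0.03. Jak1, the kinase shared by several interferon receptors, had the highest level at 190 CPM (log2 fold change -0.03), followed by Ifngr2 at 49.8 CPM (0.04). The smallest p in each direction were those of Il10rb (0.15, unadjusted p = 0.154) and Jak1 (unadjusted p = 0.432).

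Among the other STAT and IRF factors 8 of 9 were tested and 0 called. Irf2, which antagonises activation at the response element, had a log2 fold change of -0.17 (SE 0.0435, edgeR adjusted p = 0.145), and Irf3, the factor that starts interferon transcription, one of 0.13 (adjusted p = 0.302) at 28.1 CPM. Stat3, the most abundant of them at 51.4 CPM, had -0.01. Of the sensors and adaptors for foreign nucleic acid 16 of 17 were tested and 0 had an unadjusted p under 0.05, with a median log2 fold change of 0.06. The smallest p in either direction were those of the adaptor Mavs (0.18, unadjusted p = 0.0835) and of Tlr9 (-0.13, unadjusted p = 0.427), and the most abundant were the kinase gene Tbk1 at 52.0 CPM and Tlr3, a sensor of double-stranded RNA, at 11.1 CPM.

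Of 89 further interferon-stimulated genes 74 were tested, with 0 called by edgeR, 5 higher and 2 lower at an unadjusted p under 0.05 (11.5% of all genes passed in either direction), and 52 above 0 (50.3% of all genes). Their median log2 fold change was 0.05. Ifitm3, which restricts virus entry, had 0.38 (unadjusted p = 0.0103, edgeR adjusted p = 0.288). Epsti1 had -0.67 (unadjusted edgeR p = 0.0230) at a mean of 0.533 CPM and 5 to 26 counts a library, which are low. The most abundant, Ly6e at 134 CPM and the class I light chain B2m at 35.4 CPM, had 0.00 and 0.06. Of 13 negative regulators 12 were tested and 0 called. Rnaseh2c, a subunit of the nuclease that removes RNA from DNA hybrids, had 0.25 (edgeR adjusted p = 0.238), Samhd1 had -0.10 (unadjusted p = 0.0435), and the abundant Ptpn11 (201 CPM) and the RNA editing enzyme gene Adar (163 CPM) had 0.04 and -0.02.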

How the data were processed

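Poly-A RNA of the hippocampus was measured in 21 mice (9 MS, 12 SR) with a directional NEBNext kit. Per the submitters' processing notes, reads were aligned with STAR 2.7.3a to GRCm38 and counted with featureCounts. The strand setting is not given in the sources used here. The authors deposited raw counts per gene, not normalized or filtered. Columns of no sample numbered 0. Library totals of 17276810 to 30449055 set the counting error.

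Groups follow the treatment given for each mouse in the labels. Symbols and positions are those of GENCODE M21, and promoter sequences are from RefSeq. The set of 9 genes, the pathway and marker lists and the tests were chosen with earlier results of these data known. Named genes are the 9, their relatives, from each pathway list the smallest p on either side and the 2 of highest CPM, and the 10 genes closest to the mean z score. Dsp and the genes overlapping a member were added after values were seen.

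Counts were filtered by filterByExpr (minimum count 10), normalized by TMM and tested in edgeR 4.0.16 by its quasi-likelihood test (limma 3.58.1, R 4.3.3), two-sided, with Benjamini-Hochberg adjustment over all genes and a threshold of 0.05. MS replicate 5 was left out, since it stood apart. The study removed 1 outlier without naming it, and whether it was this library is not known. CPM used the TMM-normalized totals, and log2 CPM used a prior count of 2. Correlation p-values came from 100000 permutations. Near-identical transcripts were found with BLAST+ 2.17.0 (100 bases or more). Computations were tested on simulated data. Alternatives were all 21 libraries, DESeq2 1.42.0, other filters and size factors, a range term, limma-voom with a random set effect, sums within sets, each range alone and each library or set left out. The choroid plexus marker score as a term was chosen after seeing the data.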

Additional observations from a re-analysis of the deposited data

Results flagged for a closer look

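MS replicate 5, which was left out of every test, had 1.81 CPM of Isg15 and 21.97 CPM of Irf9, each above every SR library (the highest SR values were 1.79 and 21.4 CPM). Its values of the other genes were 2.41 CPM of Ifit1, 7.85 of Ifit2, 8.21 of Ifit3, 36.5 of Stat2, 2.21 of Irf7, 2.51 of Bst2 and 20.4 of Ifi27, all within the range of the SR mice. The library had 13.8 CPM summed over the choroid plexus markers, less than every other mouse. Their part in these values was not tested.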

How the results depend on the processing

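No member was called in MS against SR under any of 38 alternatives. Of 342 member values, 322 kept their direction and 20 reversed, and the smallest adjusted p was 0.0511, of Bst2 in the low range of animal numbers alone. The count of all genes called was 2 and changed to 132 with DESeq2, 1 with all 21 libraries, 1 with no filter on low counts, 0 with counts summed within sets, 230 in the low range alone, 0 in the high range alone and 0 with the choroid plexus marker score as a term. It was 0 to 340 when a library or set was left out, the highest without set C, and 109 without MS replicate 8 or without MS replicate 9. Between sets, 3 members (Irf9, Bst2 and Ifi27) were called with no filter on low counts, where 1992 of 39023 genes were called. The main fit called 0 members and 6 of 18146 genes. DESeq2's likelihood ratio test called 1 member (Irf9) among 177 of 17087 genes. With a library left out, 2 to 14 genes and 0 members were called between sets. The cause was not tested.

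Reversed log2 fold changes were 0.014 for Ifit1 with the choroid score, -0.0011 for Stat2 with no filter and -0.045 in the low range, 0.20 for Irf7 and -0.0034 for Irf9 in the low range, and -0.30 for Bst2 and -0.12 for Ifi27 in the high range. The interaction of Ifit1 was -0.0066 with all 21 libraries and -0.17 with the choroid score. With a library or set left out, the ranges were -0.14 to 0.010 for Ifit1, -0.027 to 0.025 for Stat2, -0.22 to 0.055 for Irf7 and -0.0085 to 0.16 for Irf9. The median pairwise correlation stayed within 0.040 to 0.121. No paired analysis was possible because the labels give no replicate numbers. Those used here follow the order of the samples and only name a mouse. Depth limits Isg15, Ifit1, Irf7 and Bst2, of at most 113 counts in a tested library.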

Other observations

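The genes closest to single members over the 20 mice (Pearson r of log2 CPM centred on the condition, given as a description) differed from member to member. For Ifi27 they were Acad8 (0.96), Arl6ip1 (0.93) and Acaa2 (0.93), and for Bst2 they were Dqx1 (0.94), Fxyd1 (0.92) and Bsg (0.87), which encodes basigin. The closest gene to Ifit1 was Dpy30 (0.84), to Ifit2 Prcp (0.84), to Ifit3 Abcf1 (0.84), to Isg15 Rbm39 (0.73), to Stat2 2610021A01Rik (0.78), to Irf7 Aga (0.74) and to Irf9 Ccdc117 (0.86). None of these genes is another member of the set.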
